A study of Mus musculus with 19 samples.

Results

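The Slit and Robo genes encode a repulsive guidance system whose ligand and receptor parts were read here, with their Srgap adaptors, in retinal ganglion cells (RGCs) that avoid or cross the midline. The 9 genes are *Slit1*, *Slit2* and *Slit3*, *Robo1*, *Robo2* and *Robo3*, and *Srgap1*, *Srgap2* and *Srgap3*. They were taken as the rows whose Ensembl identifier carries 1 of these symbols in the mouse annotation of GRCm38, which gave 9 of the 47069 genes counted, and all 9 passed the filter on low counts that left 15941 genes to test. The question put to them was whether ligands, receptors and adaptors differ between ipsilateral RGCs (iRGCs) and contralateral RGCs (cRGCs) at E16.5, an age at which axons reach the optic chiasm.

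Cells carrying the nuclear envelope protein Sun1 fused to GFP were sorted from E16.5 mouse retinas, and their polyA RNA was sequenced in 3 libraries per population. Both populations were of the strain C57/DBA F1, labelled as wild type, from male and female embryos pooled, and both carried the Sun1-GFP reporter behind a stop cassette that Cre removes. In iRGCs the Cre was driven by *Slc6a4* (Sert), the serotonin transporter gene, and in cRGCs by *Pou4f2* (Brn3b), into whose locus that Cre was inserted, after the ventrotemporal (VT) part of the retina had been cut away. The *Pou4f2* driver marks RGCs in general, so cRGCs are defined by the driver together with the dissection, and GFP stays on in cells and descendants of cells that have once made Cre. The 6 libraries held 28193178 to 33638083 reads counted on genes. Nothing in the labels says which embryos each RNA library came from, so p-values measure the spread between these libraries, which may be partly technical.

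Slits are large secreted proteins that repel growth cones after binding Robo receptors at the axon surface, with heparan sulfate as a cofactor. In the mouse visual system *Slit1* and *Slit2* keep retinal axons in their path inside the eye and around the optic chiasm, and *Robo2* is the receptor best known for this in RGCs. *Robo3* is the divergent receptor, needed for midline crossing of hindbrain and spinal commissural axons, and in mammals it responds to Nell2 in place of Slits. The Srgap proteins bind the cytoplasmic tail of Robo, bend membranes through an F-BAR domain and switch off small GTPases.

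The labelled cell types were checked first. *Zic2*, the transcription factor of the ipsilateral programme, had 155 ± 19.9 CPM in iRGCs and 61.0 ± 4.38 in cRGCs (mean ± SD, n = 3; CPM are counts relative to the library total, scaled by TMM). *Pou4f1* had 135 ± 40.5 against 655 ± 215 CPM and *Isl2* 21.5 ± 2.40 against 95.8 ± 44.4, and *Pou4f2*, whose locus carries the contralateral driver, had 102 ± 29.6 against 227 ± 57.4. Those 4 genes passed the test in the direction of their labels, with adjusted p-values of 2.09e-04, 4.00e-04, 0.00117 and 0.00424 (edgeR quasi-likelihood test, Benjamini-Hochberg). *Pou4f1* and *Pou4f2* are also among the 15 general RGC markers given below, of which 14 were lower in iRGCs. Their direction therefore cannot by itself check the labels. *Slc6a4*, whose regulatory sequence drives the ipsilateral Cre, did not follow its label: it had 2.06, 33.4 and 116 CPM in iRGC replicates 1 to 3 and 48.1, 35.4 and 30.5 CPM in the cRGC libraries (adjusted p = 0.768, edgeR). The library labelled iRGC replicate 1, with 64 reads, lay below every cRGC library, and that labelled iRGC replicate 2 lay below 2 of the 3, so the 9 genes are given with and without each of them.

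Markers of other cells moved with the populations, and whether they bear on the 9 genes was not tested. At an adjusted p under 0.1 (edgeR), 23.3% of all 15941 genes tested were higher in iRGCs and 23.1% lower. The counts of markers here and below stand beside these shares. Summed over 15 markers of RGCs, the level was 2575, 3605 and 5502 CPM in iRGCs and 14282, 12868 and 15894 in cRGCs. Of those markers 14 were lower in iRGCs, *Nefm* was the most abundant and *Thy1* did not pass (adjusted p = 0.121, edgeR). The 16 markers of retinal progenitors summed to 9886, 8902 and 7851 CPM in iRGCs and 1594, 2774 and 2312 in cRGCs, with *Ccnd1* the most abundant; 14 were higher in iRGCs, *Vim* did not pass and *Six3* was lower. In bulk RNA such as this, fewer cells of a type and less RNA per cell cannot be told apart.

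All 8 markers of neurogenic precursors, led by *Hes6*, were higher in iRGCs, with summed levels of 1207, 1284 and 1182 against 233, 444 and 347 CPM. The 5 tested of 6 photoreceptor precursor markers, led by *Otx2*, were all higher (784, 611 and 582 against 98.3, 194 and 136 CPM), as were 5 of 9 markers of amacrine and horizontal cells (401, 390 and 425 against 277, 311 and 406 CPM). The most abundant of these, *Onecut2*, was not among the 5, with 152 against 224 CPM (log2 fold change -0.56, adjusted p = 0.117, edgeR), and neither was *Onecut1* (-0.58). Endothelial markers, of which 6 of 11 were tested and all 6 were higher, summed to 449, 656 and 436 CPM in iRGCs and 88.7, 109 and 71.8 in cRGCs, and *Kdr* alone gave 366, 320 and 418 of these CPM in iRGCs. *Cdh5*, *Tie1* and *Erg* had 0 reads in every cRGC library and 5, 2 and 4 reads in iRGC replicate 3, against 2630, 1426 and 242 in iRGC replicate 2. *Kdr* and *Cldn5* passed in all 16 fits, *Flt1* in 14 of 15, *Pecam1* in 13 of 15, *Esam* in 10 of 15 and *Egfl7* in 10 of 16. Mural markers, led by *Notch3*, summed to 135, 276 and 108 against 21.3, 31.8 and 23.0 CPM, so that both vascular lists were highest in iRGC replicate 2. By group means, *Notch3* alone gave 105 of 173 CPM in iRGCs and 20.8 of 25.4 CPM in cRGCs. Of the mural markers 3 of 6 tested were higher, as were 3 of 6 tested microglial markers, led by *Csf1r* (15.6, 21.6 and 14.4 against 0.577, 3.83 and 1.84 CPM). Some of these markers passed the filter on low counts through their iRGC reads, so that their direction was partly set by it. *Rgs5* had 117, 3036 and 71 reads in iRGCs against 2, 1 and 10, and *Csf1r* 238, 275 and 179 against 0, 36 and 5.

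The remaining lists were scarce. Fibroblast and mesenchyme markers summed to at most 22.1 CPM in a library, with *Col1a2* the most abundant and, alone of 4 tested, past the threshold (higher), and *Lum* at 0 in all 6 libraries. Optic stalk and astrocyte markers, led by *Aldh1l1*, which of 2 tested alone passed (lower), reached at most 9.57 CPM, and pigment epithelium markers, led by *Mitf*, with 0 of 3 tested past the threshold, at most 6.65 CPM. No lens marker was abundant enough to test: *Cryaa* led them, *Mip* was at 0 in all 6 libraries, and the highest sum was 7.08 CPM, in iRGC replicate 2.

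**Figure D1:**
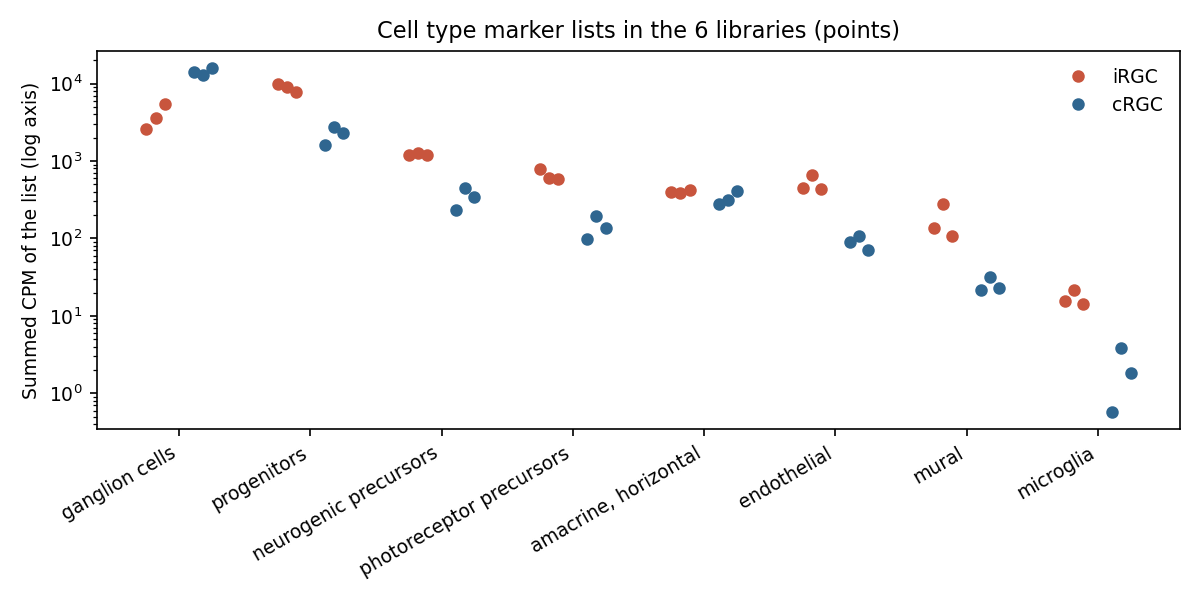
Summed CPM of cell type marker lists (log axis) in each of the 3 iRGC and 3 cRGC libraries, 1 point a library. The RGC list lies higher in the cRGC libraries (12868 to 15894 CPM) than in the iRGC libraries (2575 to 5502 CPM), and the progenitor list lies the other way (1594 to 2774 against 7851 to 9886 CPM).

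Of the 9 genes, 4 were lower in iRGCs and 1 was higher at an adjusted p under 0.1, and 4 did not pass. Among all 15941 genes tested, 23.1% were lower and 23.3% higher (46.4% in either direction), so being past this threshold was common in this comparison. With library totals alone the table held 5100 genes higher and 2842 lower, against 3707 and 3688 with TMM, and the 9 genes again gave 4 lower and 1 higher. The libraries of the 2 populations did not overlap for the same 5 genes, with cRGCs above for 4 and iRGCs above for 1, against 28.2% and 27.1% of all genes tested (55.3% in either direction). The median log2 fold change of the 9 genes, iRGC over cRGC, was -0.52, beside a median of -0.0031 over all tested genes. When a log2 fold change beyond 1 was asked for as well, *Robo2* and *Srgap1* remained, both lower, and none was higher, against 11.0% and 12.1% of all genes. Without iRGC replicate 1, the library lowest in *Slc6a4*, the same 4 genes were lower, with log2 fold changes of -0.61 for *Slit1*, -1.06 for *Robo2*, -1.63 for *Srgap1* and -0.55 for *Srgap2*, and none was higher. The others then had -0.19 for *Slit2*, 0.46 for *Slit3*, -0.47 for *Robo1*, 0.34 for *Robo3* and 0.19 for *Srgap3*. Without iRGC replicate 2 in its place, the same 5 genes passed as with all libraries, at -0.84 for *Slit1*, -1.02 for *Robo2*, -1.81 for *Srgap1*, -0.55 for *Srgap2* and 0.33 for *Srgap3*, and the others had -0.31 for *Slit2*, -0.69 for *Slit3*, -0.66 for *Robo1* and 0.74 for *Robo3*.

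Among the ligands, *Slit1* (chr19:41600257-41743665, minus strand, GRCm38) differed between the populations. It had 62.3, 89.4 and 90.3 CPM in iRGCs and 123, 117 and 171 CPM in cRGCs. Every iRGC library lay below every cRGC library, with replicate 1 the lowest of the iRGCs and replicate 3 the highest of the cRGCs. *Slit1* was 1.70-fold higher in cRGCs (80.7 ± 15.9 against 137 ± 29.9 CPM, log2 fold change -0.76, SE 0.19, adjusted p = 0.0120, edgeR with Benjamini-Hochberg), and it passed in all 15 other fits, those that leave out a library included.

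*Slit2* (chr5:47983138-48307733, plus strand), a ligand made around the optic chiasm, had 116, 135 and 91.9 CPM in iRGCs and 142, 107 and 137 CPM in cRGCs. The libraries overlapped, and no difference was shown (log2 fold change -0.17, 95% confidence interval -0.55 to 0.20, adjusted p = 0.456, edgeR). Its direction depended on the scaling, with a log2 fold change of 0.042 when the library totals alone were used. The gene holds the microRNA gene *Mir218-1* within its span, and *Slit3* holds *Mir218-2*, neither of which is part of the gene counts given here.

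*Slit3* (chr11:35121224-35708507, plus strand) was close to the limit of detection in the libraries of both populations. It had 0, 1.02 and 0.820 CPM in iRGCs and 0.615, 0.966 and 0.420 CPM in cRGCs. The count of 0 in iRGC replicate 1 allows up to 0.0965 CPM at 3 reads, counting error only. The interval of its log2 fold change, -3.25 to 3.01, was too wide to show a difference at this depth (adjusted p = 0.957, edgeR), and its direction flipped with library totals alone (0.063) and without iRGC replicate 1 (0.46) or cRGC replicate 2 (0.25).

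Among the receptors, *Robo2* differed most between the populations. *Robo2* (chr16:73891839-74411825, minus strand) had 307, 289 and 339 CPM in iRGCs and 698, 633 and 635 CPM in cRGCs, so that the libraries of each kind lay close together and far from those of the other. It was 2.1-fold higher in cRGCs (312 ± 25.0 against 655 ± 37.0 CPM, log2 fold change -1.07, SE 0.11, adjusted p = 2.19e-04, edgeR), with a range of -1.14 to -0.87 over the 15 other fits. Without iRGC replicate 1 or any other library it still passed.

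*Robo1* (chr16:72308306-73046095, plus strand), the paralogue next to it, had 70.7, 90.1 and 67.1 CPM in iRGCs and 66.2, 93.0 and 167 CPM in cRGCs. The cRGC libraries spread over the whole range of the iRGC libraries and beyond it, and cRGC replicate 3 stood alone at the top. The log2 fold change was -0.52 (95% confidence interval -1.19 to 0.16, adjusted p = 0.207, edgeR). Single cRGC libraries decided it: without replicate 1 it became -0.78 and passed (adjusted p = 0.0473), and without replicate 3 it was -0.062 (adjusted p = 0.866). *Robo1* and *Robo2* are convergent neighbours on chromosome 16, 846 kb apart, with 5 annotated genes and 0 protein-coding genes between them.

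*Robo3* (chr9:37415669-37433246, minus strand) was the scarce receptor, with 12.3, 5.63 and 15.1 CPM in iRGCs and 8.57, 10.8 and 5.29 CPM in cRGCs. Both the highest and nearly the lowest value belonged to iRGCs. Its log2 fold change of 0.43 (95% confidence interval -0.50 to 1.35, adjusted p = 0.452, edgeR) did not pass in any fit. Its neighbour *Robo4*, the Robo of endothelial cells, ends 553 bp from the end of *Robo3* on the other strand and had 3.57, 23.3 and 0 CPM in iRGCs and 0 reads in all 3 cRGC libraries. It did not pass the main filter on low counts. Only its iRGC reads could bring it into a fit, so its passing in the 5 other fits that tested it is not read as a result. *Robo4* was highest in iRGC replicate 2, the library in which the sum of the endothelial markers was highest, though not *Kdr*. What its level owes to endothelial RNA was not tested.

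The adaptors differed in both directions. *Srgap1* (chr10:121780991-122047315, minus strand) had 91.0, 118 and 114 CPM in iRGCs and 417, 325 and 338 CPM in cRGCs. It showed the largest fold change of the 9 genes, 3.34-fold higher in cRGCs (108 ± 14.7 against 360 ± 50.04 CPM, log2 fold change -1.74, SE 0.14, adjusted p = 2.05e-04, edgeR), and 84.3% of all tested genes changed by less in either direction. It passed in all 15 other fits. Of its exonic bases, 1.43% are shared with *Gm48804* on the same strand, so the reads on these bases are uncertain.

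*Srgap2* (chr1:131285251-131527352, minus strand) had 116, 117 and 104 CPM in iRGCs and 164, 164 and 157 CPM in cRGCs. The libraries were tight within each population and did not overlap, and *Srgap2* was 1.44-fold higher in cRGCs (113 ± 7.09 against 162 ± 4.12 CPM, log2 fold change -0.52, SE 0.10, adjusted p = 0.00303, edgeR). With library totals alone the log2 fold change was -0.32, still past the threshold.

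*Srgap3* (chr6:112717971-112947266, minus strand) passed in the other direction, alone among the 9. It had 641, 530 and 543 CPM in iRGCs and 507, 455 and 453 CPM in cRGCs, with a narrow gap between the populations. The ratio was 1.21 (571 ± 60.3 against 472 ± 30.9 CPM, log2 fold change 0.28, SE 0.11, adjusted p = 0.0822, edgeR). It failed the test in 5 of the 15 other fits: without the filter on low counts (0.27, adjusted p = 0.169), without iRGC replicate 1 (0.19, 0.225) and without cRGC replicate 1 (0.33, 0.104), replicate 2 (0.27, 0.194) or replicate 3 (0.26, 0.203). With library totals alone it was 0.48. Of its exonic bases, 1.52% are shared with *Gm44081* on the opposite strand, and whether the counting used strand is not given in the sources used here.

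**Figure D2:**
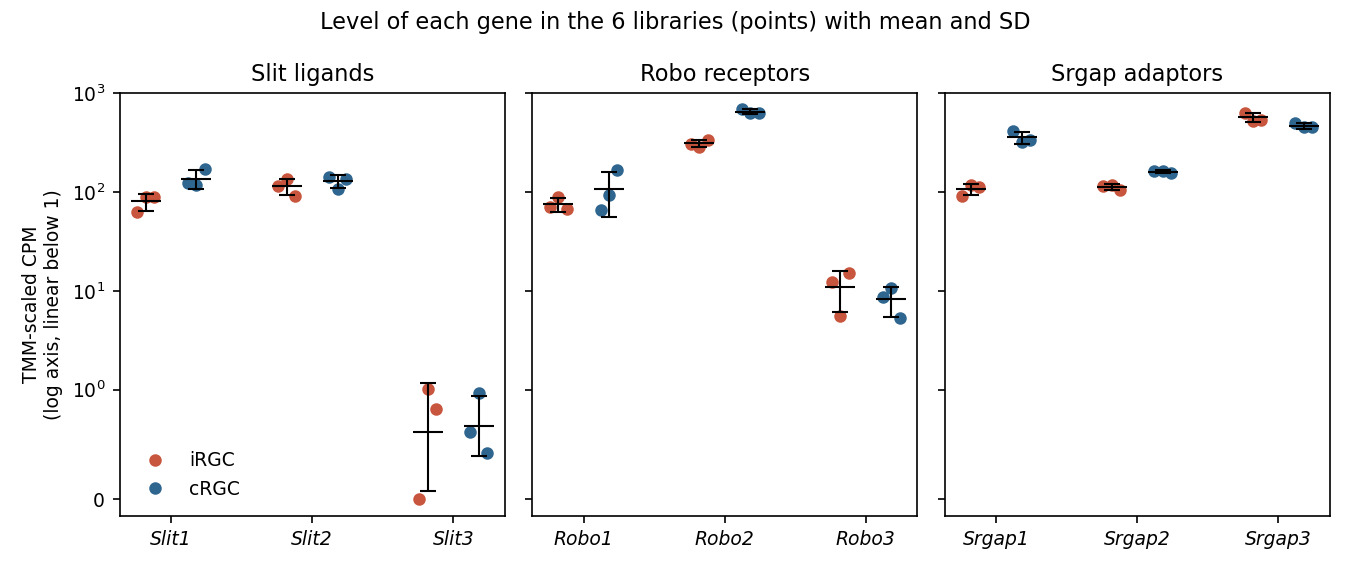
CPM scaled by TMM of each gene in the 3 iRGC and 3 cRGC libraries (points; log axis, linear below 1), with the mean (horizontal bar) and SD (error bar) of each population. The iRGC points lie below the cRGC points for Slit1, Robo2, Srgap1 and Srgap2 and above them for Srgap3, and the points mix for Slit2, Slit3, Robo1 and Robo3.

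**Figure D3:**
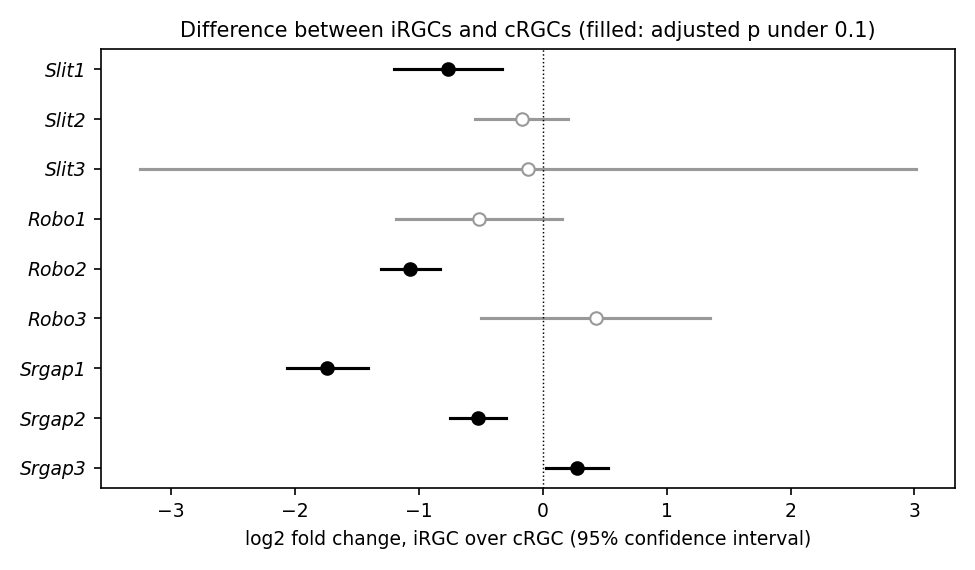
Log2 fold change, iRGC over cRGC, of the 9 genes with the 95% confidence interval, filled where the adjusted p was under 0.1. The estimates run from -1.74 for Srgap1 to 0.43 for Robo3, and the interval of Slit3, from -3.25 to 3.01, is the widest.

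The promoters of the 2 genes with the largest differences, *Robo2* and *Srgap1*, and of *Srgap3*, which passed in the other direction, are shown with that of the divergent receptor *Robo3*. The windows are RefSeq promoters on GRCm38.p6 that run from 250 bases before the start site to 50 bases after it, printed 5′ to 3′ on the strand of the gene, all on the minus strand: *Robo2* at chr16:74411776-74412075, *Srgap1* at chr10:122047266-122047565, *Srgap3* at chr6:112947217-112947516 and *Robo3* at chr9:37433126-37433425. Capitals mark matches, on either strand, to motifs that were searched in all 32851 promoter windows of the table. The homeodomain core, TAATTA, was found in 5.29% of these windows. The E-box searched was CAGCTG, which 16.3% of the windows held. The Zic core was CCTGCTG, present in 10.5% of the windows. A GC box, spelled GGGCGG here, was in 35.7% of them, and the TATA box, as TATAAA, was in 13.6%.
Robo2: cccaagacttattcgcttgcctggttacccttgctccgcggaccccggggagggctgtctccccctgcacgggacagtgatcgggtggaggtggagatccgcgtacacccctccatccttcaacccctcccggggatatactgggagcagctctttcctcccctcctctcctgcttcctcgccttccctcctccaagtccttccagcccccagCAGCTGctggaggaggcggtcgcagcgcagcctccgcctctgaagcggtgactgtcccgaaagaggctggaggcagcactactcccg
Srgap1: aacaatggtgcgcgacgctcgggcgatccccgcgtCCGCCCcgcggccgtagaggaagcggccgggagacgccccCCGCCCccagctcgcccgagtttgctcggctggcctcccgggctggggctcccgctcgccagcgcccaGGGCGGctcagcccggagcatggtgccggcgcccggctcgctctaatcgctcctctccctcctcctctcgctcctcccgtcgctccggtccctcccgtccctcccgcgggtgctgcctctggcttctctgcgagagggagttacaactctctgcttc
Srgap3: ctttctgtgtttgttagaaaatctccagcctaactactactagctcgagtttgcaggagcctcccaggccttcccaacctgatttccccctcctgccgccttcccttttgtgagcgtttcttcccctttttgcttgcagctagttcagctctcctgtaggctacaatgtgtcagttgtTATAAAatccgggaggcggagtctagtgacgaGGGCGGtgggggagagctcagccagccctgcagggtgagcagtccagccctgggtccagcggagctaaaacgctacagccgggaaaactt
Robo3: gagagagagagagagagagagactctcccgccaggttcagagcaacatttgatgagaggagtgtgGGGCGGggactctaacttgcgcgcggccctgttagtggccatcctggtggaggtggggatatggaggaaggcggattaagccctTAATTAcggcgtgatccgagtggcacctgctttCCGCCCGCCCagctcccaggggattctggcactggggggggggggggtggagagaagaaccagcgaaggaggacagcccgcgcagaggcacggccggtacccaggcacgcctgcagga

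The *Robo2* window held 1 E-box, 37 bases before the start site, and no other of these motifs, with a GC content of 65.0%. The *Srgap1* window held 3 GC boxes and had a GC content of 73.3%, while that of *Srgap3* held a TATA box 72 bases and a GC box 40 bases before the start site at 54.7% GC, beside a median of 52.7% over all windows. Of the 8 genes with a window, *Robo3* alone held the homeodomain core, 101 bases before the start site, with 3 GC boxes. These are matches of letters and say nothing of binding. *Slit1* has no window in the table, and *Robo2* has 3, of which the other 2, with none of these motifs, lie 680945 and 1035468 bases upstream of the start of the gene in GENCODE M21, the annotation used here for positions.

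Compared per kilobase of exon, *Srgap3* was the most abundant of the 9 genes in both populations. In iRGCs the mean levels were 58.0 ± 6.12 CPM per kb for *Srgap3*, 18.4 ± 1.47 for *Robo2*, 13.6 ± 2.69 for *Slit1*, 11.8 ± 1.61 for *Srgap1*, 8.97 ± 0.564 for *Srgap2*, 4.60 ± 0.750 for *Robo1*, 4.49 ± 0.841 for *Slit2*, 1.61 ± 0.713 for *Robo3* and 0.101 ± 0.0891 for *Slit3*. *Slit1* and *Srgap1*, and *Robo1* and *Slit2*, overlapped as neighbours in that order. In cRGCs the order began with *Srgap3* at 47.9 ± 3.13, *Srgap1* at 39.4 ± 5.48 and *Robo2* at 38.6 ± 2.18 CPM per kb, followed by *Slit1* at 23.1, *Srgap2* at 12.9, *Robo1* at 6.58, *Slit2* at 5.06, *Robo3* at 1.20 and *Slit3* at 0.11. There *Srgap1* and *Robo2*, and *Robo1* and *Slit2*, overlapped. The length matters for these orders, since the joined exons of *Slit2* span 25433 bases against 9960 in its longest transcript, and with longest transcripts *Robo2* came first in cRGCs at 76.3 CPM per kb.

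With TMM scaling, the mean sum of each family per kilobase of exon was higher in cRGCs. The Robo total was 24.6 ± 1.49 CPM per kb in iRGCs and 46.3 ± 1.88 in cRGCs, the Slit total 18.2 ± 2.82 against 28.3 ± 5.41, and the Srgap total 78.7 ± 4.74 against 100.2 ± 8.74. With library totals alone the Srgap totals of the populations overlapped. Within the families, the shares of some genes differed as well. Those of the Slit genes overlapped between the populations, with *Slit1* at 74.5% ± 5.36 of the Slit total in iRGCs and 81.5% ± 2.82 in cRGCs. *Srgap1* took 11.8%, 17.0% and 16.4% of the Srgap total in the iRGC libraries and 41.4%, 37.5% and 38.7% in the cRGC libraries, and *Srgap3* 73.5% ± 3.33 against 47.9% ± 1.04. *Robo2* took 74.7% ± 1.51 of the Robo total in iRGCs and 83.3% ± 5.60 in cRGCs, without overlap at these exon lengths. With longest transcripts the *Robo2* shares of the populations overlapped. *Robo3* took 6.46% ± 2.59 against 2.61% ± 0.970, with overlap.

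**Figure D4:**
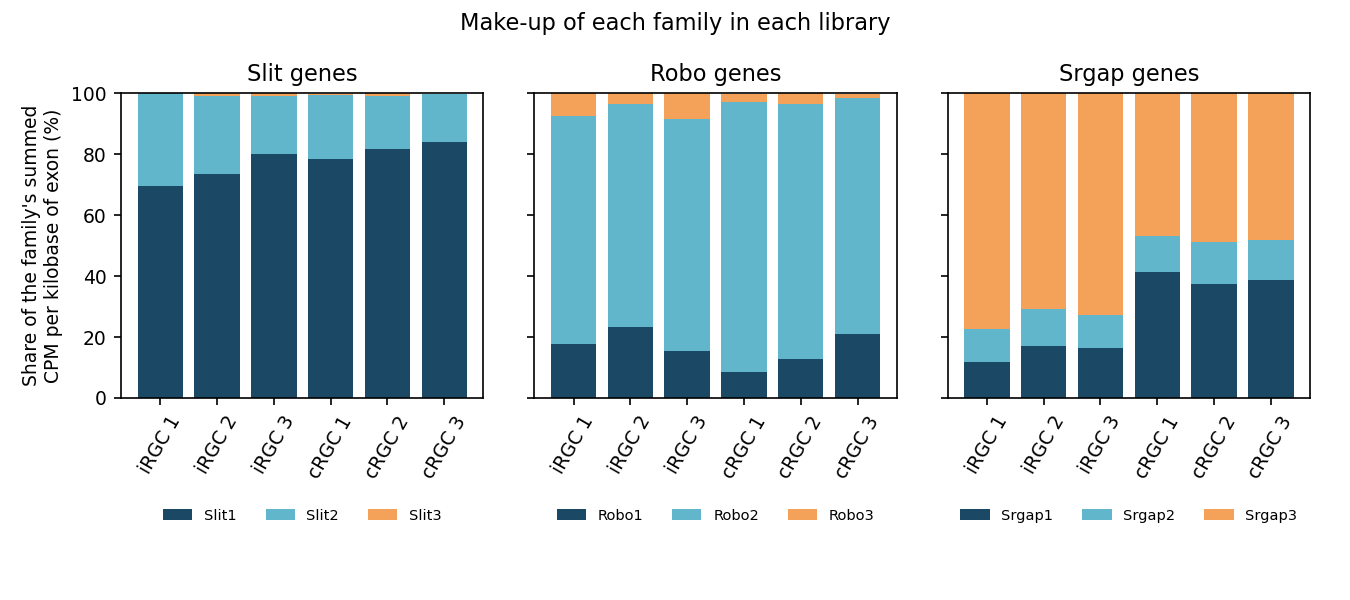
Share of each gene in the summed CPM per kilobase of exon of its family (percent) in each of the 6 libraries. Srgap1 takes 11.8% to 17.0% of the Srgap total in iRGCs and 37.5% to 41.4% in cRGCs, and Robo2 is the main receptor in all 6 libraries.

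Ratios of counts within a library do not depend on how libraries are scaled, and 7 were compared. The reads on *Srgap1* were 14.2%, 22.3% and 21% of those on *Srgap3* in iRGCs and 82.2%, 71.4% and 74.6% in cRGCs, a difference of -2.01 on the log2 scale. *Srgap1* against *Srgap2* differed by -1.21, *Srgap2* against *Srgap3* by -0.80 and *Robo3* against *Robo2* by 1.44, all without overlap between the populations. For those 4 ratios the exact permutation test, two-sided, gave p = 0.1, the smallest that 3 libraries against 3 allow, or 0.175 with Benjamini-Hochberg adjustment over the 7. *Robo1* against *Robo2* differed by 0.65 (exact p = 0.3, adjusted 0.35) and *Slit1* against *Slit2* by -0.59 (exact p = 0.2, adjusted 0.28) with libraries that overlapped. The ratio of *Slit2* to *Slit3* rests on the count of 0 for *Slit3* in iRGC replicate 1, to which 0.5 was added: it differed by 1.25 with that library (exact p = 0.8, adjusted 0.8) and by -0.72 without it.

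As a description chosen after the values were seen, the genes were also set against the summed level of the 15 RGC markers, which was itself lower in iRGCs (means of 3894 and 14348 CPM). On this measure 79.2% of all tested genes were higher in every iRGC library than in any cRGC library, since any gene lowered less than the markers turns out higher, and so were 7 of the 9 genes, so nothing particular to them is read from it. The ratios of those 7 were 2.30 for *Slit1*, 3.69 for *Slit2*, 2.89 for *Robo1*, 1.89 for *Robo2*, 5.14 for *Robo3*, 2.83 for *Srgap2* and 4.98 for *Srgap3*. *Robo2* had 119, 80.3 and 61.6 CPM per 1000 CPM of RGC markers in iRGCs and 48.9, 49.2 and 39.9 in cRGCs. *Srgap1* had 35.3, 32.8 and 20.7 against 29.2, 25.2 and 21.2, and its libraries overlapped, as did those of *Slit3*. RNA of other cells enters the numerator here, and its part was not tested.

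Beyond the 9 genes, 71 genes of the same pathway were listed and 69 were tested. At an adjusted p under 0.1, 18 of the 69 were higher in iRGCs and 32 lower, beside 23.3% and 23.1% of all tested genes, and the median log2 fold change was -0.33. With library totals alone, which moved the median of all tested genes to 0.20, the split was 25 higher and 27 lower, beside 5100 and 2842 over the whole table. With TMM, a log2 fold change beyond 1 left 8 higher and 12 lower, beside 12.1% and 11.0% of all tested genes.

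*Nell2*, which encodes the ligand of Robo3, alone passed of 4 tested genes among further ligands and relatives. It had 128, 195 and 273 CPM in iRGCs and 825, 681 and 678 CPM in cRGCs, and was 3.67-fold higher in cRGCs (log2 fold change -1.88, SE 0.24, adjusted p = 5.03e-04, edgeR). The iRGC libraries all lay far below the cRGC libraries. *Nell1* (-0.94, adjusted p = 0.130), *Ndnf* (0.71, 0.233) and *Arhgap4*, another Srgap relative (-0.038, 0.950), did not pass. Without iRGC replicate 3, *Nell1* passed at -1.43 (adjusted p = 0.0324). *Arhgap4* shares 36.1% of its exonic bases with other genes, so its count is uncertain.

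Of 16 coreceptors and enzymes of heparan sulfate, 7 were higher and 5 lower in iRGCs, beside 23.3% and 23.1% of all tested genes. The syndecan genes *Sdc4* (10.6 ± 0.842 against 2.32 ± 2.07 CPM, log2 fold change 2.19) and *Sdc2* (34.5 ± 7.17 against 7.94 ± 3.35 CPM, 2.12) were higher, and *Plxna1*, a plexin that Slit fragments can bind (214 ± 13.6 against 475 ± 53.7 CPM, -1.15), and *Hs6st1*, a heparan sulfate sulfotransferase (79.6 ± 9.76 against 158 ± 8.05 CPM, -0.99), were lower. Without cRGC replicate 2, the highest of the cRGC libraries for *Sdc4*, its log2 fold change was 3.24. *Plxna1* and *Hs6st1* share 10.7% and 8.07% of their exonic bases with genes on the opposite strand. The adjusted p-values of the 4 genes were 0.0149, 0.00125, 2.33e-04 and 3.72e-04 (edgeR). The median of the list was 0.073.

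The list of netrin signalling, which interacts with Robo signalling, was divided, with 3 of 8 tested genes higher and 3 lower, beside the same shares of all genes. *Unc5c* (51.8 ± 9.08 against 164 ± 9.18 CPM, log2 fold change -1.66) and *Unc5d* (4.82 ± 3.12 against 17.9 ± 6.26 CPM, -1.89) were lower in iRGCs, while *Met*, a receptor tyrosine kinase (35.0 ± 4.48 against 5.92 ± 3.40 CPM, 2.57), and *Unc5b*, which endothelial cells also express (2.22), were higher. *Unc5b* had 24.3, 70.3 and 13.7 CPM in iRGCs and 5.57, 6.87 and 10.7 CPM in cRGCs. It was highest in iRGC replicate 2, the library with the highest sum of endothelial markers. Without that library its log2 fold change was 1.29 and it still passed (adjusted p = 0.0305, edgeR). What its level owes to endothelial RNA was not tested. *Ntn1* itself was scarce (3.48 ± 0.873 against 1.08 ± 0.175 CPM, 1.68) and passed in 11 of 16 fits, but not without iRGC replicate 2 (1.59, adjusted p = 0.119, edgeR), iRGC replicate 3 (1.54, 0.135) or cRGC replicate 3 (1.58, 0.120). *Dcc*, the attractive netrin receptor that Robo can silence, had 71.4 ± 16.0 against 81.6 ± 28.8 CPM (-0.19, adjusted p = 0.597, edgeR).

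Of 10 tested genes for the splicing, trafficking and cleavage of Robo, 0 were higher and 9 lower in iRGCs, beside 23.3% and 23.1% of all tested genes (median of the list -0.76). *Nova2*, a splicing factor that acts on Robo and Dcc transcripts, was 104 ± 24.7 against 354 ± 31.7 CPM (-1.76), *Nedd4l*, a ubiquitin ligase, 59.2 ± 13.4 against 167 ± 18.0 CPM (-1.50), and *Adam10*, the protease that sheds the Robo ectodomain, 266 ± 30.2 against 562 ± 175 CPM (-1.08). *Nova2* shares 31.7% of its exonic bases with *Gm26821* on the opposite strand, so its count is uncertain. *Nedd4* did not pass (-0.15, adjusted p = 0.219, edgeR). The levels of the RGC markers moved in the same direction, and their part in this was not tested.

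Of the 29 cytoplasmic effectors of Robo, 6 were higher and 14 lower, beside 23.3% and 23.1% of all tested genes, with a median of -0.28. *Dock1*, an activator of Rac, was higher in iRGCs (70.6 ± 18.3 against 9.89 ± 5.27 CPM, 2.83), and the kinase genes *Pak1* (111 ± 21.4 against 298 ± 33.7 CPM, -1.42) and *Pak3* (189 ± 19.5 against 390 ± 14.3 CPM, -1.04) and the microtubule-binding *Clasp2* (234 ± 35.3 against 520 ± 23.0 CPM, -1.15) were lower. The transcription factors *Lhx2* (231 ± 27.1 against 37.2 ± 13.6 CPM, 2.63) and *Lhx9* (7.64 ± 3.17 against 1.34 ± 0.546 CPM, 2.50), known to act on Robo genes in other neurons, were higher in iRGCs, and *Lhx2* is also among the progenitor markers above.

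**Figure D5:**
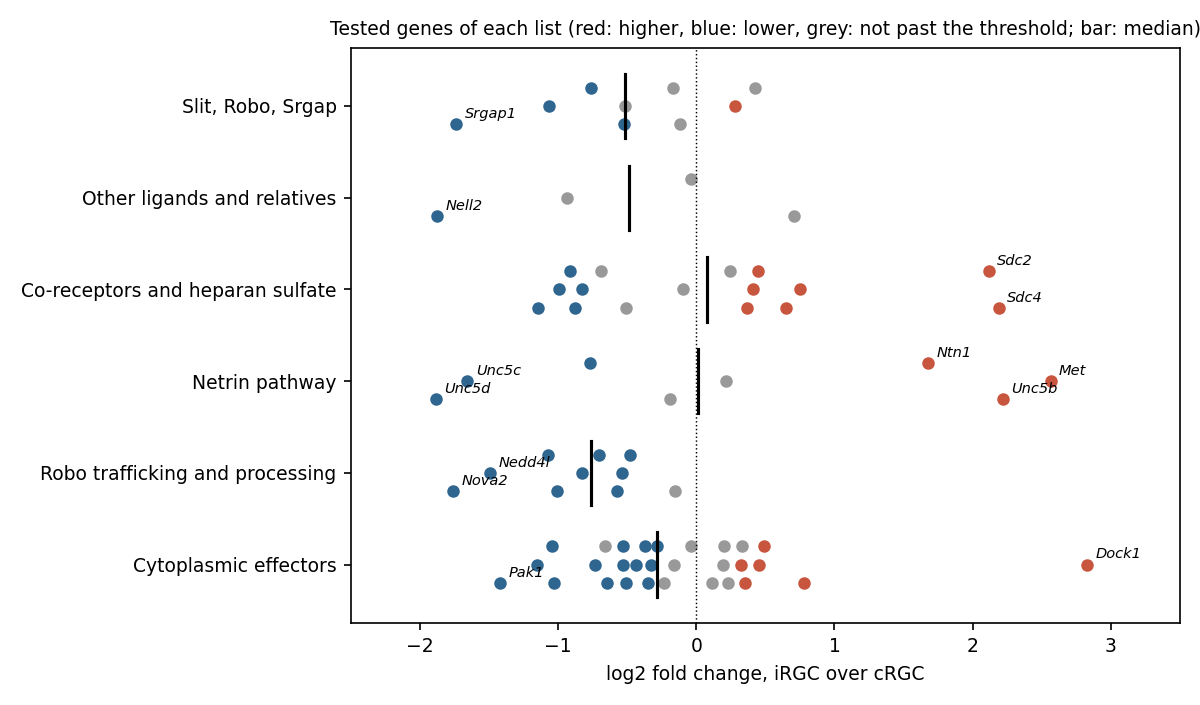
Log2 fold change, iRGC over cRGC, of each tested gene of the Slit, Robo and Srgap families and of 5 further pathway lists (points; red higher, blue lower, grey not past an adjusted p of 0.1; vertical bar, median of the list). The 10 tested trafficking and processing genes all lie below 0, with a median of -0.76, and the netrin list spreads from -1.89 to 2.57.

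The genes whose levels followed the leading member of each family most closely over the 6 libraries were found among 10264 genes, by the root mean square distance of centred log2 CPM. For *Slit1*, the ligand highest per kilobase, these were *Snx30*, *Nkain1* and *Mtmr6* (distances of 0.084, 0.088 and 0.092). For *Robo2* they were *March2*, *Lrsam1* and *Pak3* (0.047, 0.047 and 0.053), the last of which is among the Robo effectors above. For *Srgap3* they were *Ubr2*, *Nr6a1* and *Bahcc1* (0.028, 0.032 and 0.035).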

How the data were processed

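The authors aligned 50-base reads to mm10 with HISAT2 2.1.0, counted them per gene of the Ensembl GRCm38 annotation with HTSeq 0.11.1 and deposited unnormalized counts, 1 table per library. Tallies without a gene were left out, and reads overlapping no gene were 12.3% to 23.2% of the uniquely aligned ones. Symbols, positions and exons came from GENCODE M21, and promoters from RefSeq. The main test was the two-sided quasi-likelihood test of edgeR 4.0.16 in R 4.3.3 (filterByExpr, TMM, group alone), adjusted by Benjamini-Hochberg over 15941 genes, with a threshold of 0.1. The study used DESeq2 at that threshold. Alternatives were other size factors, DESeq2 1.42.0, limma voom 3.58.1, other filters, a replicate block, each library left out, protein-coding genes alone, a stricter or fold threshold and other lengths. The fit was tested on simulated data. Replicates differed beyond sampling noise. The genes and lists were chosen with earlier results of these data known. Besides the 9 genes, the text names up to 4 genes per pathway list, with the largest fold changes among those past the threshold at a mean of 5 CPM or more, a few genes named in advance, each marker list's most abundant gene and markers at 0, and the 3 genes most alike. Other names were chosen after their values were seen. A gene that this rule names is not reported here. The 13 ATAC-seq samples were not analysed here.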

Additional observations from a re-analysis of the deposited data

How the results depend on the processing

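*Slit1*, *Robo2*, *Srgap1* and *Srgap2* kept their direction and stayed past the threshold in all 15 other fits. *Srgap3* passed in 10 of them, *Robo1* in 1, *Slit2* and *Robo3* in 0 of 15 and *Slit3* in 0 of 14, since it had under 10 counts in at least 1 library. Of the 9 genes, the count higher in iRGCs fell from 1 to 0 without the filter on low counts (*Srgap3* at 0.27), at an adjusted p under 0.05 and with a log2 fold change beyond 1, and was 0 to 1 with single libraries left out. The count lower fell from 4 to 2 with the fold threshold, which also took the whole table from 3707 higher and 3688 lower to 1930 and 1758, and the pathway lists from 18 and 32 to 8 and 12. Library totals alone reversed *Slit2* (0.042) and *Slit3* (0.063) and gave 5100 higher and 2842 lower over the whole table. With single libraries left out, the log2 fold change ranged from -0.69 to 0.46 for *Slit3*, from -0.78 to -0.062 for *Robo1* and from 0.19 to 0.33 for *Srgap3*, and the *Slit2* to *Slit3* ratio from -0.72 to 2.30. *Slit3* moved further with limma voom (-1.39) and with the replicate block (-0.83), against -0.12 in the main fit. With longest transcripts, 5 of 9 genes in iRGCs and 6 of 9 in cRGCs kept their rank. The cause of these changes was not tested.

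No pairing by replicate number was seen: deviations of same-numbered libraries correlated at -0.012, -0.024 and -0.055, and those of different numbers at -0.0084 to 0.035. The labels do not say how the replicates were collected, so these values cannot settle whether they were paired. With the replicate block, the log2 fold change was -0.76 for *Slit1*, -1.07 for *Robo2*, -1.74 for *Srgap1*, -0.53 for *Srgap2* and 0.27 for *Srgap3*, again 4 lower and 1 higher, with 3316 higher and 3435 lower over the whole table. The biological coefficient of variation was 36.3% over all tested genes, 105% for *Slit3* and 37.3% for *Robo3*.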
